A study of Mus musculus with 2 samples.

Results

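The miR-200 family of microRNAs (miRNAs) was followed in the left cerebral cortex of 2 young mice. Its 5 genes were taken by their GENCODE M21 names, Mir200a, Mir200b, Mir429, Mir200c and Mir141, out of 2202 miRNA genes in the deposited count files, and all 5 were found. The tissue came from male mice of the strain B6CASTF1/J at 25 days, the F1 hybrid of C57BL/6J and CAST/EiJ, with no treatment named in the labels. There is 1 group of 2 biological replicates, and each replicate is 1 library from a separately numbered mouse. Differences between the libraries are therefore differences between 2 mice and 2 library preparations, which cannot be told apart. The labels name the left cerebral cortex and no cell type, so fewer cells of a type and less of a miRNA per cell cannot be told apart either.

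A miRNA is cut from a hairpin in a longer transcript, and bases 2 to 8 of the mature strand, the seed, pair with target mRNAs to repress them. The miR-200 family is best known from epithelia, where its members repress the transcription factors ZEB1 and ZEB2 and so help to keep the adhesion protein E-cadherin expressed. In the mouse nervous system the family is known from the olfactory epithelium, and mature cortical neurons are not a classical site of its expression.

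The family is made by 2 clusters, and its main mature strands (3p) fall into 2 seed groups that cut across the clusters. The strands are shown because the seed decides which targets a member can share with the others. They are given 5′ to 3′ from RefSeq (GRCm38.p6) with the seed in capitals.
miR-200b-3p: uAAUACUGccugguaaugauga
miR-429-3p: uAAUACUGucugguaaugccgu
miR-200c-3p: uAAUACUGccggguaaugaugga
miR-200a-3p: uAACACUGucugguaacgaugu
miR-141-3p: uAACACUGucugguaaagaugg
Mir200b, Mir429 and Mir200c share the seed AAUACUG, and Mir200a and Mir141 share AACACUG. Counted from the 5′ end, miR-200b-3p and miR-200a-3p differ inside the seed by U4C. Of the 1738 mature sequences in the RefSeq table, 3 carried the first seed and 2 the second, and all of them belong to the family.

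Closely related strands could be hard for an aligner to separate, so the members were compared base by base. Over 22 bases, miR-200b-3p and miR-200c-3p differed by U11G and A22G. Mature miR-200a-3p and miR-141-3p differed by C17A and U22G, and their longest identical run was 16 bases. Against the hairpins outside the family, among 1005 in the table, no mature strand of a member (3p or 5p) had an identical run of more than 11 bases. No 2 members thus share a whole mature strand, and the number of mismatches allowed in alignment is not given in the sources used here. Counts were deposited per gene, so the 3p and 5p strands of a hairpin cannot be separated in them.

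All 5 genes lie on the minus strand of the mm10 assembly. Mir200b (ENSMUSG00000065549.3, chromosome 4, 156055681 to 156055750) comes first along the transcript. Mir200a (ENSMUSG00000065400.1, 156054896 to 156054985) follows 695 bases further on, and Mir429 (ENSMUSG00000065427.1, 156053905 to 156053987) another 908 bases after it. The 3 hairpins lie in introns of Ttll10, which encodes a member of the tubulin tyrosine ligase-like family. They also lie within the non-coding gene Gm13648 on the same strand, where Mir429 overlaps an exon and Mir200b and Mir200a lie in introns. On chromosome 6, Mir200c (ENSMUSG00000065462.3, 124718322 to 124718390) precedes Mir141 (ENSMUSG00000065474.1, 124717914 to 124717985) with 336 bases between them. Both lie in an intron of the non-coding gene Gm15884, and Mir141 also overlaps an exon of Gm29008, on the same strand. The nearest protein-coding genes are Phb2, a prohibitin gene on the other strand 963 bases away, and the tyrosine phosphatase gene Ptpn6, 2316 bases away.

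Own-strand counts over all miRNA genes came to 2388379 in replicate 1 and to 4447390 in replicate 2. Levels are counts per 1000000 of these (CPM), and the level of 3 counts is 1.26 CPM in the first library and 0.675 CPM in the deeper second. Reads with several matches, 48.6% and 52.8% of mapped reads, were given to no gene. Levels of genes whose main mature strand is also made by another gene therefore leave out reads that match both. Intervals are exact, at 95%. They describe counting error alone, because PCR copies of a molecule cannot be recognised without molecular identifiers. A gene is called measured here if each library had 10 or more of its counts, which held for 392 genes, and 761 genes had a count in either library.

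The family had counts in both libraries, at low abundance. Its 5 genes together held 295 counts in replicate 1, or 124 CPM (Poisson interval 110 to 138 CPM). In replicate 2 they held 677 counts, or 152 CPM (141 to 164 CPM). The mean was 138 ± 20.3 CPM (SD, n = 2). The family held 0.0124% of the assigned counts in replicate 1 and 0.0152% in replicate 2. All 5 members lay below the median mean level of the 392 measured genes, 121 CPM. On the opposite strand of these genes replicate 1 had 1 count, at Mir141, and replicate 2 had 0.

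Mir429 was the most abundant member by its mean, with the smallest spread for its level. It had 153 counts in replicate 1 and 272 in replicate 2, or 64.1 CPM (54.3 to 75.1) and 61.2 CPM (54.1 to 68.9). The intervals overlap almost entirely, and the mean was 62.6 ± 2.05 CPM (SD, n = 2). By own-strand counts Mir429 ranked 225 of 638 genes with a count in replicate 1 and 233 of 736 in replicate 2.

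Mir200b, the neighbour with the same seed, differed most between the mice. It had 51 counts in replicate 1 and 317 in replicate 2, or 21.4 CPM (15.9 to 28.1) and 71.3 CPM (63.6 to 79.6). The intervals are far apart, with replicate 2 high, and the mean of 46.3 CPM carried an SD of 35.3 CPM (n = 2). Its rank among genes with a count was 271 in replicate 1 and 229 in replicate 2.

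Mir200a, the middle hairpin of the chromosome 4 cluster, was low in both libraries. It had 17 counts in replicate 1 and 19 in replicate 2, or 7.12 CPM (4.15 to 11.4) and 4.27 CPM (2.57 to 6.67). The intervals overlap, and the mean was 5.69 ± 2.01 CPM (SD, n = 2).

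On chromosome 6, Mir200c was the main product. It had 69 counts in replicate 1 and 64 in the deeper replicate 2, or 28.9 CPM (22.5 to 36.6) and 14.4 CPM (11.1 to 18.4). Replicate 1 was the higher library here, without overlap of the intervals, and the mean was 21.6 ± 10.3 CPM (SD, n = 2). Mir141 had 5 counts in each library, or 2.09 CPM (0.680 to 4.89) and 1.12 CPM (0.365 to 2.62). It was the only member below 10 counts, and its levels lay within a factor of 2 of the level that 3 counts give.

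**Figure D1:**
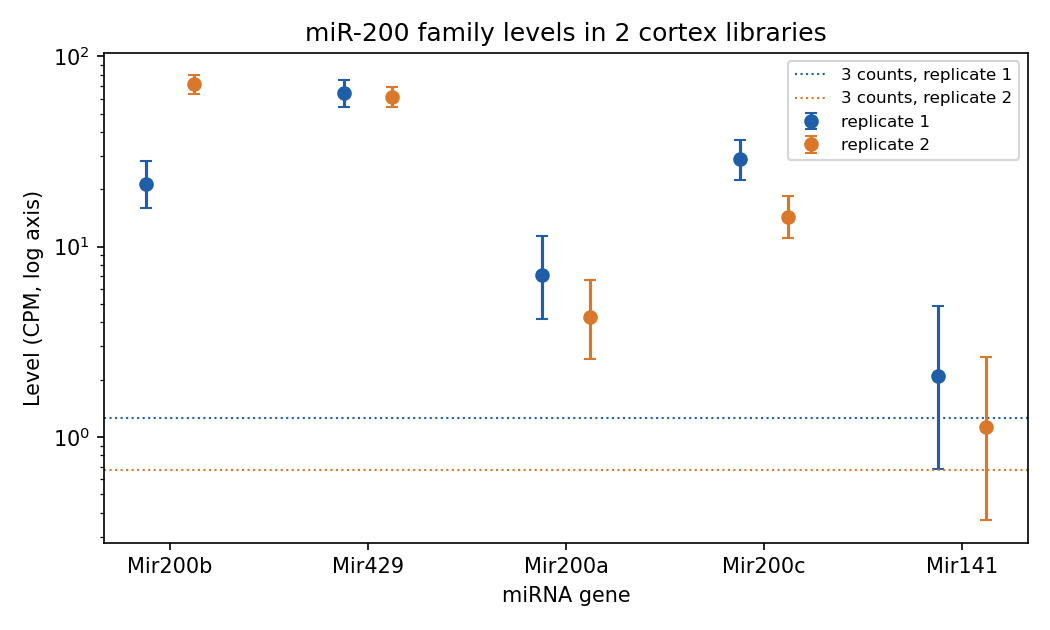
Level of each member in CPM on a log axis in replicate 1 (blue) and replicate 2 (orange), with exact 95% Poisson intervals; dotted lines mark the level of 3 counts in each library. Mir429 overlaps between the libraries at 64.1 and 61.2 CPM, Mir200b lies higher in replicate 2 and Mir200c higher in replicate 1.

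By mean CPM the order was Mir429, Mir200b, Mir200c, Mir200a and Mir141, and it was the same with CPM per base of hairpin, where the hairpins measured 69 to 90 bases. The place of Mir200b depended on the library. In replicate 1 its counts were 0.333 of those of Mir429 (interval 0.238 to 0.460) and 0.739 of those of Mir200c (0.504 to 1.08), so that Mir200b and Mir200c could not be ordered at this depth. In replicate 2 the counts of Mir200b were 1.17 times those of Mir429 (0.988 to 1.38), which could not be ordered either. Per base of hairpin that ratio was 1.38 (1.17 to 1.63). The 3p mature strands of both genes are 22 bases long, so scaling by the hairpin does not settle their order. Its counts in replicate 2 were 4.95 times those of Mir200c (3.78 to 6.59).

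The lower part of the order was the same in both mice. Counts of Mir200c were 4.06 times those of Mir200a in replicate 1 (interval 2.36 to 7.36) and 3.37 times in replicate 2 (1.99 to 5.95). Counts of Mir200a in turn were 3.40 times those of Mir141 (1.20 to 11.8) and 3.80 times (1.37 to 13.0). Per base of hairpin, the interval of this last ratio in replicate 1 was 0.963 to 9.43 and includes 1.

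Within the chromosome 6 cluster, Mir200c had 13.8 times the counts of Mir141 in replicate 1 (5.64 to 43.8) and 12.8 times in replicate 2 (5.21 to 40.8), with wide intervals because Mir141 had so few counts. Within the chromosome 4 cluster the ratios with Mir200b differed between the libraries beyond their intervals. Mir429 had 9 times the counts of Mir200a in replicate 1 (5.44 to 15.9) and 14.3 times in replicate 2 (8.99 to 24.1), with overlapping intervals that rest on 17 and 19 counts of Mir200a. Mir200b had 3 times the counts of Mir200a in replicate 1 (1.70 to 5.54) and 16.7 times in replicate 2 (10.5 to 28.1), with no overlap. These ratios are taken within a library and do not depend on the scaling of its total.

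**Figure D2:**
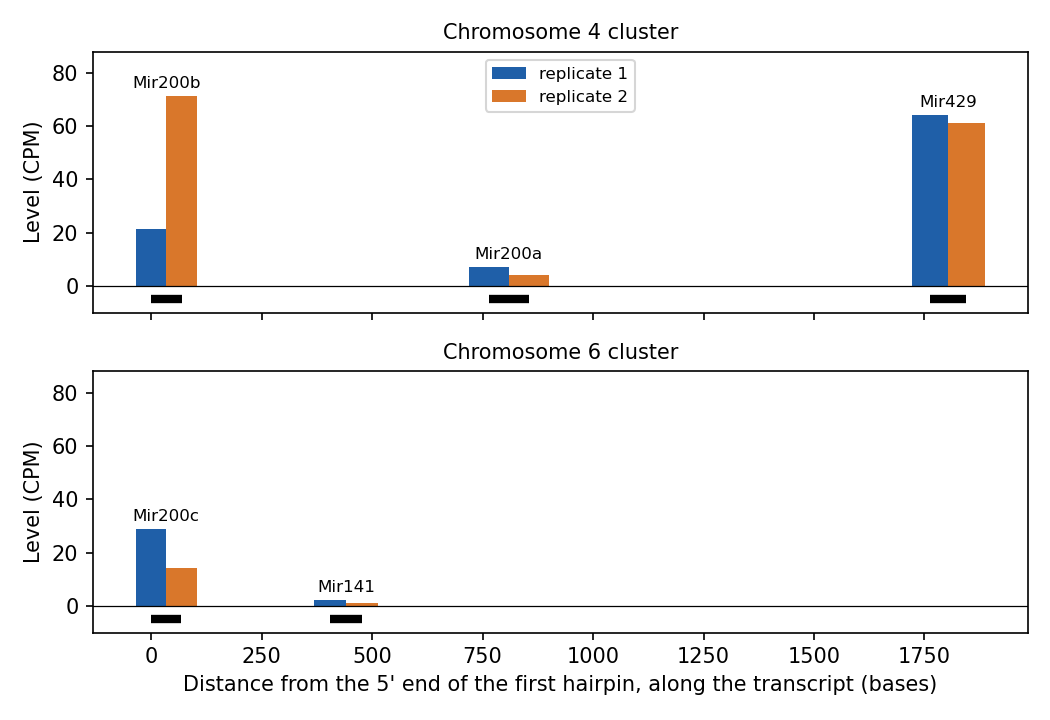
Level in CPM of each hairpin in replicate 1 (blue bars) and replicate 2 (orange bars) against its distance in bases from the 5′ end of the first hairpin of its cluster; black lines show the hairpins to scale and the paired bars are each as wide as a hairpin. In the chromosome 4 cluster the first hairpin, Mir200b, has bars at 21.4 and 71.3 CPM, and the last, Mir429, at 64.1 and 61.2 CPM.

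Shares of the family's counts followed from these levels. The chromosome 4 cluster gave 74.9% of them in replicate 1 (69.6 to 79.8%, Clopper-Pearson) and 89.8% in replicate 2 (87.3 to 92.0%). The chromosome 6 cluster gave the remaining 25.1% (20.2 to 30.4%) and 10.2% (8.02 to 12.7%), a mean of 17.6% ± 10.5 (SD, n = 2). Mir200b alone held 17.3% of the family in replicate 1 (13.2 to 22.1%) and 46.8% in replicate 2 (43.0 to 50.7%). Mir429 was the majority in replicate 1, at 51.9% (46.0 to 57.7%), and held 40.2% in replicate 2 (36.5 to 44.0%).

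By seed, the family was almost entirely of the AAUACUG kind. Mir200b, Mir429 and Mir200c together gave 92.5% of the counts in replicate 1 (88.9 to 95.3%) and 96.5% in replicate 2 (94.8 to 97.7%). This group stood at 114 and 147 CPM. Mir200a and Mir141, with the AACACUG seed, had 22 and 24 counts, or 9.21 and 5.40 CPM. In both clusters the AACACUG member had the lowest counts of its cluster.

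**Figure D3:**
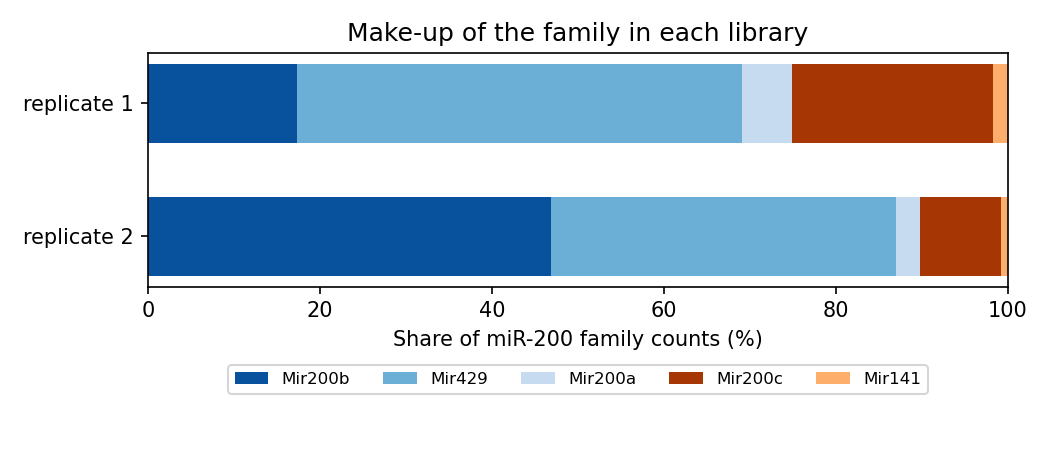
Share of the family's counts in percent taken by each member in replicate 1 and replicate 2, with chromosome 4 members in blue and chromosome 6 members in orange and brown. Mir200b takes 17.3% in replicate 1 and 46.8% in replicate 2, and Mir200c takes 23.4% and 9.45%.

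The libraries were then compared gene by gene over the whole table by an exact two-sided binomial test conditional on the library totals, with Benjamini-Hochberg adjustment over the 392 measured genes. The test sets 1 library against 1 library and knows only counting error. It compares these libraries, not conditions. Of all measured genes, 34.2% were called higher and 22.7% lower in replicate 2 at an adjusted p of 0.05, together 56.9%, so a call is the usual outcome here. Of the 5 family members 4 were measured, and of these 1 was called higher and 1 lower.

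Mir200b was 3.34 times as high in replicate 2 (interval 2.48 to 4.58), a log2 ratio of 1.74 with a counting SE of 0.22 and an adjusted p of 4.02e-19 in the exact binomial test. Only 10 of the 392 measured genes had a log2 ratio of larger size, 6 of them upward. Mir200c was at 0.498 of its level in replicate 1 (0.349 to 0.710), a log2 ratio of −1.01 with an SE of 0.25 and an adjusted p of 0.000176 in the same exact test, and 14 measured genes had a lower ratio. These are the members whose levels did not overlap above. They share a seed and lie in different clusters, and their ratios had opposite signs.

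Mir429 had a log2 ratio of −0.07 with an SE of 0.15 and an adjusted p of 0.738 in the exact test, and the interval of its ratio was 0.780 to 1.17. Mir200a had a log2 ratio of −0.74 with an SE of 0.48 and an adjusted p of 0.233 in the exact test, with an interval of 0.295 to 1.23. Neither passed, and the interval of Mir200a is wide because it rests on few counts. Mir141 was not tested, at a ratio of 0.537 with an interval of 0.124 to 2.33. The summed family stood at 1.23 times its level in replicate 1 (1.07 to 1.42), the chromosome 4 cluster at 1.48 times (1.26 to 1.73) and the chromosome 6 cluster at 0.501 times (0.355 to 0.705).

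When the spread between the libraries was allowed for, no member passed. The difference under test is itself part of that spread, so few calls are built into this comparison and it decides nothing about a member. In edgeR's exact test with the common dispersion of the pair (biological coefficient of variation 0.311), which takes that spread from the same 2 libraries, 0.765% of the measured genes were called, 3 in all. Mir200b had an unadjusted p of 0.0122 in this exact test and an adjusted p of 0.551, and 19 genes, 4.85% of those tested, had an unadjusted p under 0.05. Mir200c had an unadjusted p of 0.161 and an adjusted p of 1. For scale, log2 ratios of the 242 genes that had 100 or more counts in both replicates had an SD of 0.559.

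**Figure D4:**
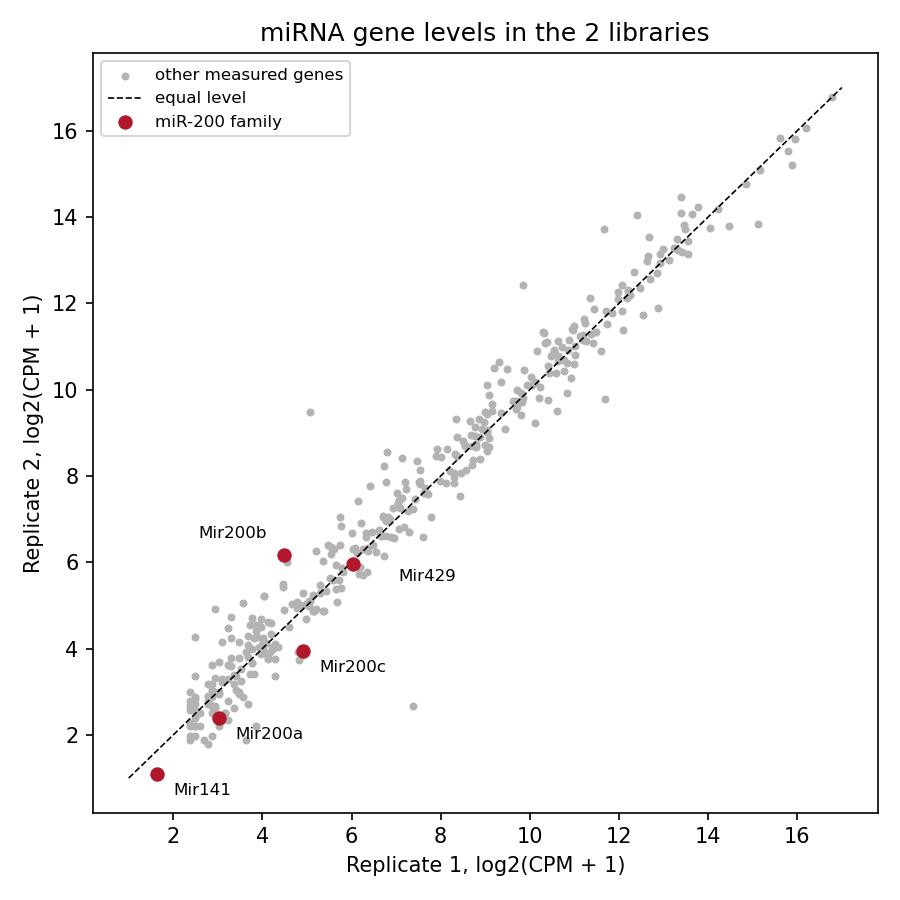
Level of every measured miRNA gene (grey) and of the 5 members (red) as log2(CPM + 1) in replicate 1 (x axis) and replicate 2 (y axis), with a dashed line of equal level. Mir200b lies above the line, Mir429 on it and Mir200c below it, and all 5 members had mean levels below the median of the measured genes.

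Neighbouring miRNA genes elsewhere in the genome give a scale for the difference inside the chromosome 4 cluster. This comparison was chosen after the members' values were seen and is a description with no test. Outside the family, 385 pairs of measured genes lay on the same strand within 10000 bases, 309 of them on chromosome 12, and a gene can be in several pairs. The log2 ratios (replicate 2 over replicate 1) of 2 neighbours differed by a median of 0.47, and by 0.54 in the 76 pairs off chromosome 12. Mir200b and Mir429 differed by 1.81, with a counting SE of 0.26, a gap that 15 of the 385 other pairs reached, 2 of them off chromosome 12. Mir200b and Mir200a differed by 2.48, with an SE of 0.53 because Mir200a is low, and 1 other pair reached that. Mir200a and Mir429 differed by 0.67, which 137 other pairs reached. The pair Mir200c and Mir141 was left out because Mir141 had under 10 counts.

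**Figure D5:**
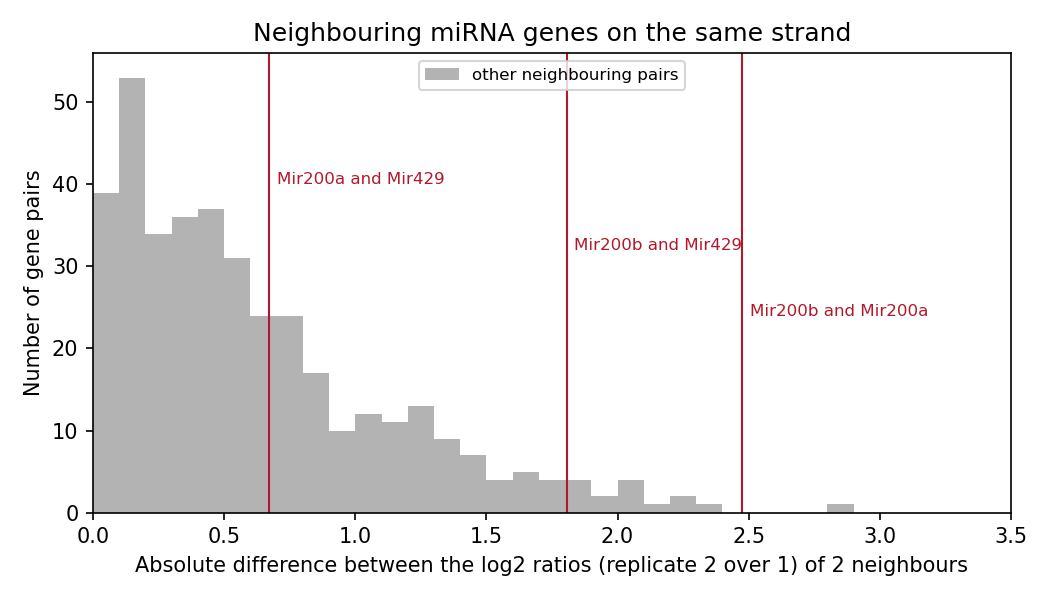
Number of neighbouring gene pairs (y axis) by the absolute difference between the log2 ratios of their 2 genes (x axis), with the 3 pairs of the chromosome 4 cluster as red lines. Other pairs have a median of 0.47, and the pairs with Mir200b lie at 1.81 and 2.48.

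Other genes with levels like those of a member were found by distance in log2(CPM + 1) over the 2 libraries, a measure that rests on 2 points a gene. Nearest to Mir200b were Mir6236, with 54 and 282 counts at a distance of 0.18, and Mir344b, with 50 and 197 counts at 0.67. Mir429 lay next to Mir29b-1 (distance 0.18) and the hepatocyte miRNA gene Mir122 (0.26). Mir122 stood at 54.0 and 57.6 CPM in replicates 1 and 2, and where its reads came from was not tested. Mir29b-2 makes the same main mature strand as Mir29b-1, whose level leaves out reads that match both genes. Mir200c lay next to Mir3064, with 69 and 60 counts at 0.09, and Mir3070b at 0.11. Mir200a lay next to Mir6906 (0.06) and Mir6912 (0.10).

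Other epithelial miRNA genes were also found. Of the 7 on the list 5 were measured, and 2 were called higher and 2 lower in replicate 2, where 34.2% and 22.7% of all measured genes were called. Mir205, which also represses ZEB1 and ZEB2, stood at 12.6 and 25.2 CPM in replicates 1 and 2 (log2 ratio 1.00, adjusted p = 0.000868, exact binomial test). Mir192, known from gut and kidney, stood at 10.05 and 16.9 CPM (adjusted p = 0.0469, exact test). Mir203, a miRNA of skin, stood at 80.4 and 54.0 CPM, and Mir31 at 1550.01 and 723 CPM. Mir194-2 had 21.4 and 28.8 CPM and did not pass. Mir194-1 makes the same main mature strand, so reads that match both genes are missing and the levels of this pair are uncertain. Mir215 had no count. The list summed to 1674 and 848 CPM, and to 124 and 125 CPM without Mir31, a sum added after the values were seen.

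Markers of other cells that the dissected tissue could hold were read beside the family, and their part in its levels was not tested. The list of sensory and neuroendocrine epithelium summed to 108 and 126 CPM in replicates 1 and 2. It had 3 of 4 genes measured and none called, against 56.9% of all measured genes, but these 3 had only 16 to 207 counts in replicate 1. Mir375 stood at 86.7 and 103 CPM and Mir182 at 6.70 and 8.99 CPM, and Mir96 had 1 count in all. Choroid plexus and ependyma summed to 870.05 and 1010.5 CPM. In that list 4 of 7 genes were measured, with Mir204 called higher (507 and 718 CPM), Mir34c called lower (312 and 228 CPM), and Mir449b and Mir449c at 0. Mir211 of that list stood at 2.51 and 8.54 CPM, from 6 and 38 counts, and was too low in replicate 1 to be tested. Pituitary and endocrine genes summed to 1359.5 and 1280.3 CPM, mostly Mir212, which neurons also express. The endothelial Mir126a stood at 10782 and 22504 CPM. Markers called higher in replicate 2, the direction of Mir200b, were found in several lists, among the 34.2% of all measured genes so called. They included Mir126a, Mir204 and the oligodendrocyte gene Mir219a-2 (1345 and 2210.3 CPM). The other oligodendrocyte gene, Mir338, stood at 1373 and 1341 CPM and was not called. Neuronal genes listed below were also called in both directions, and the part of any cell type in these calls was not tested. The 4 genes of microglia and leukocytes summed to 1513 and 1639 CPM, and the 2 of oligodendrocytes to 2718 and 3551 CPM. Of the heart and skeletal muscle genes, Mir206 stood at 13.4 and 22.3 CPM. Those of miR-1 and miR-133 are copies of shared mature strands whose reads can match several loci, so their low counts and the list's sum are not read here.

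The labelled tissue was checked on a list of 14 neuronal genes, of which 11 were measured. Of these, 4 were called higher and 2 lower in replicate 2, where 34.2% and 22.7% of all measured genes were called. Mir132 stood at 60392 and 37793 CPM, Mir128-1 at 10802 and 17606 CPM and Mir137 at 6366 and 8063 CPM. The genes of miR-124, a defining neuronal miRNA, had at most 9 counts in a library. They are copies of the same mature strand, and reads with several matches were given to no gene, so their level is not read here. Those of miR-9, miR-128, miR-138 and miR-218 are also copies that share a main mature strand. Their levels, and the sums of the list, leave out reads that match several copies. The list summed to 87915 and 75084 CPM, most of it Mir132, and to 27523 and 37291 CPM without that gene, a sum added after the values were seen.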

How the data were processed

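MicroRNA sequencing libraries of 2 mice (replicates 1 and 2 of 1 group, per the labels) were used. The deposited values are raw read counts per miRNA gene, made by the authors on mm10 with GENCODE M21, per the readme files. The sources used here name no aligner, counter or version. Without a header, the 3 columns were identified from their values as counts of both strands, the own strand and the opposite strand, and own-strand counts were used. Totals leave out the 4 entries with no gene: unmapped reads were 31.6% and 18.2% of all reads in replicates 1 and 2, and reads in no feature 7.36% and 6.91% of mapped reads. All 2202 gene identifiers matched GENCODE M21, and RefSeq (GRCm38.p6) gave sequences for all 5 members. The reference is C57BL/6J, and reads of the CAST/EiJ allele were not analysed separately.

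CPM, exact intervals and the exact binomial test with Benjamini-Hochberg adjustment came from Python 3.11.15 with SciPy 1.17.1. The test was tried on simulated counts with counting error alone, which leave out the spread between libraries. With 1 group, edgeR's quasi-likelihood test could not be fitted. TMM factors and an exact test came from edgeR 4.0.16, and size factors from DESeq2 1.42.0. Genes named are the members, the marker lists, the 2 nearest genes by level for each measured member, and genes at the 2 loci. The members and lists were chosen with earlier results of these data known. Alternatives covered strand, scaling, count minimum, pseudocount, hairpin length, the test and each replicate left out.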

Additional observations from a re-analysis of the deposited data

How the results depend on the processing

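With 1 replicate left out, the family level was 124 to 152 CPM, the chromosome 6 share 10.2 to 25.1% and the share of the AACACUG genes 3.55 to 7.46%. The family level was 279.6 CPM over totals without the 10 most abundant genes and 57.9 CPM over all mapped reads, since both change the denominator, and it kept within 1 SD with both strands together, TMM or DESeq2 scaling. Of 392 measured genes 223 were called, 134 higher and 89 lower, against 3 in edgeR's exact test. Totals without the 10 most abundant genes moved the median log2 ratio from 0.06 to −0.12 and the split to 98 higher and 133 lower. Across the alternatives the log2 ratio of Mir200b was 1.56 to 1.76 (adjusted p from 1.13e-19 to 0.551) and that of Mir200c −1.19 to −0.98 (6.52e-06 to 1); both lost their call only in edgeR's exact test. Mir429 (−0.25 to −0.04) and Mir200a (−0.92 to −0.71) passed in none. A minimum of 100 counts in each library left only Mir429 tested, and a minimum of 1 let Mir141 in, with an adjusted p of 0.619 in the exact binomial test. No paired analysis was possible because there is only 1 group. At this depth, Mir200a and Mir141 rest on 5 to 19 counts a library.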
